A study of Mus musculus with 5 samples.

Results

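Runx3 binding and H3K4me1 marking were examined at 9 genes that govern growth and entry into the cell cycle: Myc, Myb, Kit, the D-type cyclins Ccnd2 and Ccnd3, their kinases Cdk4 and Cdk6, and the CDK inhibitors Cdkn1a (p21) and Cdkn1b (p27). A peak was counted for a gene when it touched the gene or its flanks by at least 1 bp, with flanks of 20 kb, and of 200 kb for Myc, Myb and Kit. The 9 genes were named by their function, out of 22350 protein-coding genes of the GENCODE M1 annotation, and the rule used no measured value. The choice was not blind, since earlier results of these data were known. The paper lists Myc, Myb and Kit among Runx3-regulated genes of activated cytotoxic lymphocytes. The windows of the 9 genes spanned 1881 kb and held 37 of the 11676 Runx3 peaks and 129 of the 34204 H3K4me1 peaks. The peaks came from ChIP-seq of splenic natural killer cells (NKC) of ICR mice, an outbred stock with no engineered allele named in the labels, which also give neither age nor sex. NKC were isolated by negative selection, to which the paper's methods add cell sorting by a surface marker. They were cultured for 7 days with 1000 units/ml of human recombinant IL-2. There were 2 libraries with an in-house polyclonal anti-Runx3 antibody, 1 with an anti-H3K4me1 antibody and 2 with non-immune serum (NIS) as control. All came from IL-2-activated NKC, so that no other condition could be compared. The lists hold the start and end of each peak on mm9, called on joined reads, with no height, score or value per library. No value below therefore has a replicate error, and sequencing depth cannot be read from the lists. The paper's methods give fewer uniquely aligned reads for H3K4me1 than for Runx3 in these cells. According to the labels all cultured cells carried NKp46, and according to the paper's methods nearly all did. Of 8 NK cell marker genes, 8 had a Runx3 peak within 20 kb and 6 had one centred within 1 kb of a transcription start site (TSS), the gene of NKp46 (Ncr1) among them. The same counts were 4 of 5 and 0 for T cell markers, 2 of 5 and 0 for B cell markers, and 2 of 4 and 0 for myeloid markers. Over all protein-coding genes the shares were 41.1% and 13.3%, so the B cell and myeloid counts within 20 kb lay near the share of genes in general. The T cell count came from Cd3d, Cd3e and Cd3g, with 2 Runx3 peaks each, and Cd4 with 1, while Cd8a had none. Windows of neighbouring genes can share peaks, so the equal counts of the Cd3 genes need not be separate sites. Peaks are not expression, so these counts do not measure how pure the cultures were.

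Runx3 is a transcription factor of cytotoxic lymphocytes that binds a short DNA motif and can activate or repress the genes it binds. H3K4me1 is a histone mark typical of enhancers and of the flanks of promoters, and is usually low right at an active TSS. Cytokine signals push a resting lymphocyte through G1 by inducing Myc and the D-type cyclins. These cyclins bind Cdk4 or Cdk6, and the complexes phosphorylate the retinoblastoma protein, which releases E2F factors for S phase genes. p21 and p27 bind cyclin-CDK complexes and hold back the kinases of late G1. Myb is a transcription factor and Kit a receptor tyrosine kinase for stem cell factor, both best known from haematopoietic progenitors, and enhancers far from the gene are known for Myc, Myb and Kit.

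The sequences below are the reference genome at the peaks that the descriptions turn on, not the sequence of the ICR mice. For each gene with a Runx3 peak they show the 120 bases with most RUNX motifs from the peak nearest the TSS and from the peak with most motifs, leaving out annotated UTRs. All are read 5′ to 3′ on the plus strand of mm9. Capitals mark the RUNX motif, TGNGGN with C or T at each N, or its reverse complement on the other strand.
Myc, peak 2.0 kb upstream, chr15:61814913-61815032: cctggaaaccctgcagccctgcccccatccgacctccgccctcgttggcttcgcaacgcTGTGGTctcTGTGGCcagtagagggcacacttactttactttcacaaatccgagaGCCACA
Myc, peak 85.3 kb upstream, chr15:61731550-61731669: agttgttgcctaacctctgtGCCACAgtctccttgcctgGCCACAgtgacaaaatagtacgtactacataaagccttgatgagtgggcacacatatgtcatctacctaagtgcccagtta
Myb, peak 27.1 kb upstream, chr10:20907820-20907939: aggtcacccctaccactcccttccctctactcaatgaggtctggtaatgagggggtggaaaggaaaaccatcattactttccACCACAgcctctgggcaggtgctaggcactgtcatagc
Myb, peak 43.8 kb upstream, chr10:20924917-20925036: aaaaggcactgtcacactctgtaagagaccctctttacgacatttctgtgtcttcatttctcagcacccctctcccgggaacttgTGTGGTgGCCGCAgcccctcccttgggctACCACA
Kit, peak 87.3 kb downstream, chr5:76058499-76058618: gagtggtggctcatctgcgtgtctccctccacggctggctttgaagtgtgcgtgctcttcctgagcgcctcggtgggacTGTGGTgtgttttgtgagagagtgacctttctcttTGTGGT
Kit, peak 230.0 kb downstream, chr5:76201152-76201271: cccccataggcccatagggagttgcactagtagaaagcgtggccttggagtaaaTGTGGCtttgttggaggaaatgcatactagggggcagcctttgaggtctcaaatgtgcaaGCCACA
Ccnd2, peak 1.0 kb upstream, chr6:127102019-127102138: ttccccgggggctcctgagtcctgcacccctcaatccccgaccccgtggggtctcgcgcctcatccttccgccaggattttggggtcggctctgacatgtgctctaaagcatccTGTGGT
Ccnd3, peak 0.1 kb upstream, chr17:47641728-47641847: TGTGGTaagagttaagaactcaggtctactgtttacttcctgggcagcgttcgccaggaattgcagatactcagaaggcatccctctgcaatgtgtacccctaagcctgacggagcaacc
Cdk4, peak 0.1 kb downstream, chr10:126500424-126500543: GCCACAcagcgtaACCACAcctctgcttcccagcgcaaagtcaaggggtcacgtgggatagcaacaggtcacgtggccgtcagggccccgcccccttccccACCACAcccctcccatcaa
Cdk6, peak 12.1 kb downstream, chr5:3355957-3356076: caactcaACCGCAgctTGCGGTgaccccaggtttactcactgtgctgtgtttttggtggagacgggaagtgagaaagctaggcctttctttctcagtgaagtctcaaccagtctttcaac
Cdk6, peak 150.5 kb downstream, chr5:3494477-3494596: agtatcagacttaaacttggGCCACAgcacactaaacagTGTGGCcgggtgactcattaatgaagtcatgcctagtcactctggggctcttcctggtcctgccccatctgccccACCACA
Cdkn1b, peak 6.7 kb downstream, chr6:134876945-134877064: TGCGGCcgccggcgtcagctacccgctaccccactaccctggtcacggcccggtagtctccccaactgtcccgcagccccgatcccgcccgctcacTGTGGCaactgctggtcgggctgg

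RUNX motifs lay close together in several of these stretches. The Myc stretch next to the promoter held 3, with TGTGGT and TGTGGC 3 bases apart, and the Cdk4 stretch held 3 beside 2 copies of the E-box CACGTG, the site of MYC and MAX and related factors. In the stretch from the Myb upstream region TGTGGT was followed after 1 base by GCCGCA, and the Cdk6 stretch 12.1 kb into the gene held ACCGCA and TGCGGT 3 bases apart. The Ccnd2 stretch held 1 motif. A match is a run of letters and does not show that Runx3 sat on it.

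Runx3 peaks were found at 8 of the 9 genes, all but Cdkn1a. Within 20 kb, 41.1% of all protein-coding genes had a Runx3 peak, and of the 6 genes counted with that flank 5 did. Within 200 kb, 77.5% of all genes had one, so that a peak somewhere in so wide a window, as at Myc, Myb and Kit, is common. With a flank of 20 kb Myc, Myb and Kit had 1 Runx3 peak each, so that 8 of the 9 genes had one at that flank too. H3K4me1 peaks were found at the 6 genes with the 20 kb flank, against 51.1% of protein-coding genes, and at the 3 genes with the 200 kb flank, against 77.5%. Within 20 kb Myb had no H3K4me1 peak, Myc had 2 and Kit 6. The windows held 19.7 Runx3 peaks per Mb and 68.6 H3K4me1 peaks per Mb, against 4.42 and 13 over all chromosomes. These windows hold genes by construction, and the chromosomes as a whole also hold long stretches without any. The bars of peaks per gene show the numbers side by side.

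**Figure D1:**
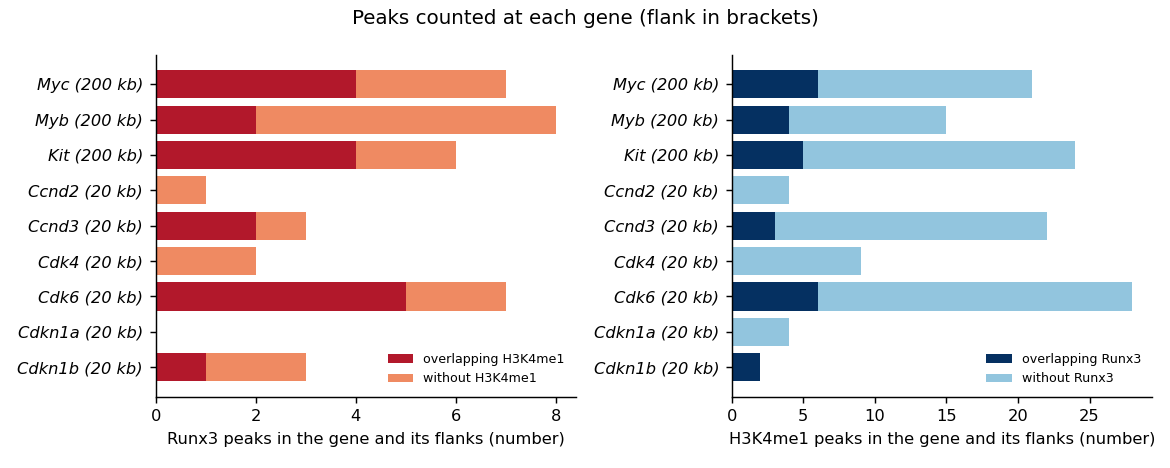
Number of Runx3 peaks (left) and of H3K4me1 peaks (right) in each gene and its flanks, with the flank in brackets. Dark bars are peaks that overlap a peak of the other list. Cdkn1a has 0 Runx3 peaks and 4 H3K4me1 peaks, and Cdk6 has the most H3K4me1 peaks, 28.

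Against all protein-coding genes, the number of Runx3 peaks stood highest at Cdk6. Its 7 peaks within 20 kb were reached by 80 genes, 0.358% of all. The 3 peaks of Ccnd3 and the 3 of Cdkn1b were reached by 7.36% of genes, the 2 of Cdk4 by 18.1% and the 1 of Ccnd2 by 41.1%. With the 200 kb flank, where the median gene had 3 peaks, the 8 of Myb were reached by 16% of genes, the 7 of Myc by 21.6% and the 6 of Kit by 28.1%. Long genes have longer windows, 219 kb at Cdk6 against 45 kb at Cdkn1b. Per Mb of window, Cdkn1b had 66.5 Runx3 peaks, Cdk4 45.1, Cdk6 31.9 and Ccnd3 22.3, and the 4 remaining bound genes had between 12.5 and 18.3. Among these 4 were Myc, Myb and Kit, counted with the 200 kb flank over windows of 405 to 482 kb. Their densities are therefore not like for like with those of the 20 kb flank. The edges of the windows left out some peaks narrowly. Counted from the gene, the next peaks outside lay 20.2 kb downstream of Cdk6, 24.6 kb upstream of Cdkn1a and 32.6 kb upstream of Cdk4, while the farthest inside were 199.3 kb from Myc and 197.0 kb from Myb.

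**Figure D2:**
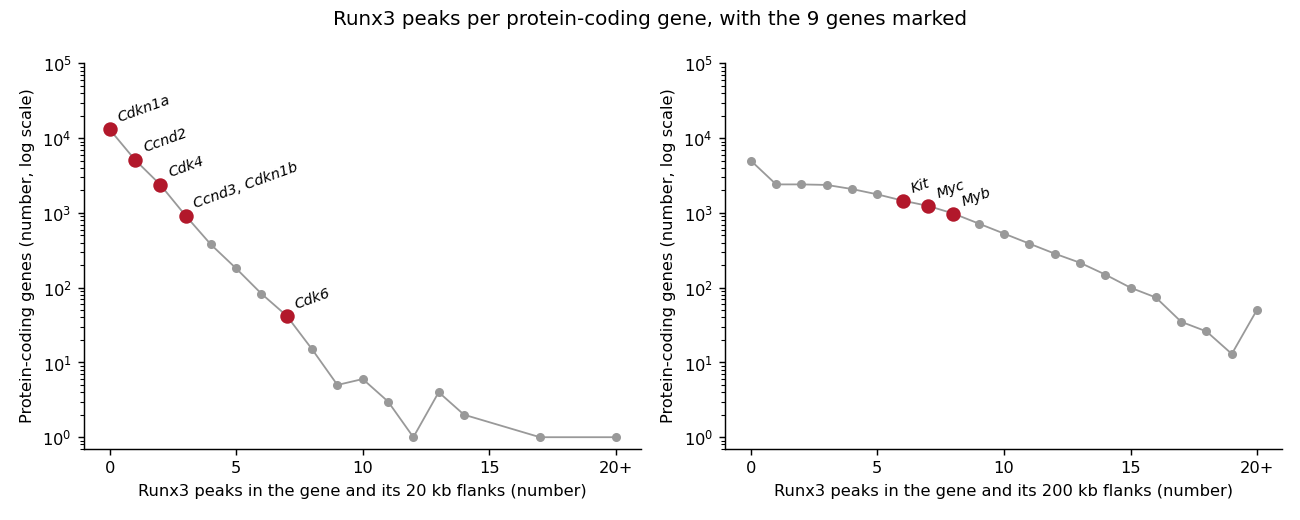
Number of protein-coding genes (log scale) by their number of Runx3 peaks, with flanks of 20 kb (left) and 200 kb (right). Red points mark where the 9 genes fall. Cdk6, with 7 peaks, lies in the tail of the left panel, while Kit, Myc and Myb, with 6 to 8 peaks, lie among common values of the right panel.

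Myc, the transcription factor that drives ribosome production and growth (chr15:61816946-61821929, plus strand), had 7 Runx3 peaks and 21 H3K4me1 peaks within 200 kb. None of the Runx3 peaks lay in the gene. The nearest, chr15:61814622-61815307, was centred 2.0 kb upstream of the TSS, was 686 bp wide and held 3 RUNX motifs, all in its central 200 bp, with 5 ETS motifs, 1 AP-1 motif and 1 STAT motif. It overlapped no H3K4me1 peak, and the nearest such peak was 5447 bp away. A second upstream peak, 85.3 kb from the TSS and with 4 RUNX motifs, was 88804 bp from H3K4me1. No H3K4me1 peak was called in the 200 kb upstream of Myc, where both of these Runx3 peaks lay.

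The other 5 Runx3 peaks of Myc lay 158.7 to 204.6 kb downstream, all in introns of Pvt1, a long non-coding RNA gene next to Myc, and 4 of them overlapped H3K4me1. The H3K4me1 peaks were on the same side. Of 21, 19 lay downstream in introns of Pvt1 and 2 in the 3′ end of Myc itself, and 10 had their centre between 150 and 200 kb from the TSS, where 4 of the 7 Runx3 peaks also fell. The peak centred 192.6 kb downstream, the widest of the 7 at 772 bp, touched an H3K4me1 peak at either end while only 4.27% of it was covered, so that it filled the gap between them. The peaks at 159.9 and 204.6 kb also lay between H3K4me1 peaks, with 46.6% and 51.8% of their width covered. Myc was the nearest protein-coding TSS for all 7 peaks, and that measure says nothing of Pvt1, which codes for no protein. Among annotated TSSs of any gene type, that of H2afy3 was nearest to the 5 downstream peaks, at 29344 to 75229 bp. The next Runx3 peak outside the window was 254.8 kb downstream of the gene, and the next upstream 576.2 kb away.

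Myb (chr10:20844736-20880790, minus strand) had 8 Runx3 peaks, the most of the 9 genes, and 15 H3K4me1 peaks. All 15 H3K4me1 peaks lay upstream of the TSS, and none in the gene or in the 200 kb beyond its 3′ end. Runx3 peaks lay on both sides, 5 upstream and 3 downstream, and none in the gene. The interval between Myb and Hbs1l, a translation rescue factor gene and its upstream neighbour, is known to hold distal Myb enhancers in blood cells. Here 3 Runx3 peaks lay in it, centred 27.1, 43.8 and 46.6 kb upstream, together with 8 H3K4me1 peaks in the first 50 kb. The middle peak of these, chr10:20923873-20925242, was 1370 bp wide, a width that 2.26% of all Runx3 peaks reached, and its 6 RUNX motifs equalled the highest number among the 37. An H3K4me1 peak overlapped each of its ends, its centre lay outside them, and none of its 6 motifs fell in the central 200 bp. The peak 46.6 kb upstream held 1 RUNX motif and lay 1022 bp from H3K4me1, and the peak 27.1 kb upstream held 3 and lay 4025 bp from it.

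Farther from Myb the peaks were shared with its neighbours. The peaks centred 174.8 and 197.3 kb upstream lay in introns of Hbs1l, and the first overlapped H3K4me1 over 85.7% of its width, while the second missed it by 46 bp. For these the nearest protein-coding TSSs were those of Hbs1l and Aldh8a1, an aldehyde dehydrogenase gene. Downstream, the peaks at 81.5 and 217.2 kb were nearest to the TSSs of Ahi1, a ciliary protein gene, and the first of them touched an Ahi1 UTR. These 2 and the peak 42.0 kb downstream of the Myb TSS were 62889 to 103500 bp from any H3K4me1 peak. Thus 2 of the 8 Runx3 peaks at Myb overlapped H3K4me1, against 4 of 7 at Myc and 4 of 6 at Kit. These shares rest on 6 to 8 peaks each and were not tested against each other.

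Kit (chr5:75970941-76052747, plus strand) had 6 Runx3 peaks and 24 H3K4me1 peaks. The gene itself held 3 H3K4me1 peaks, all in introns, and no Runx3 peak. The Runx3 peak nearest the gene, chr5:76057750-76058793, lay past its 3′ end, 87.3 kb from the 5′-most TSS and 16.5 kb from an annotated TSS of a shorter Kit transcript. It was 1044 bp wide with 3 RUNX motifs and 2 STAT motifs, and it lay 2385 bp from H3K4me1. The only upstream peak, 157.9 kb away, was 37187 bp from H3K4me1. The 4 peaks that overlapped H3K4me1 lay far downstream, centred 205.7, 217.2, 230.0 and 264.1 kb from the TSS. They were 882 to 1261 bp wide and held 2 to 4 RUNX motifs each, and the widest was the peak at 230.0 kb, with 4. They shared the region with 16 H3K4me1 peaks that lay between 200 and 300 kb from the TSS, 10 of them beyond 250 kb. The farthest was nearest to the TSS of Kdr, another receptor tyrosine kinase gene, and the other 5 were nearest to Kit.

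**Figure D3:**
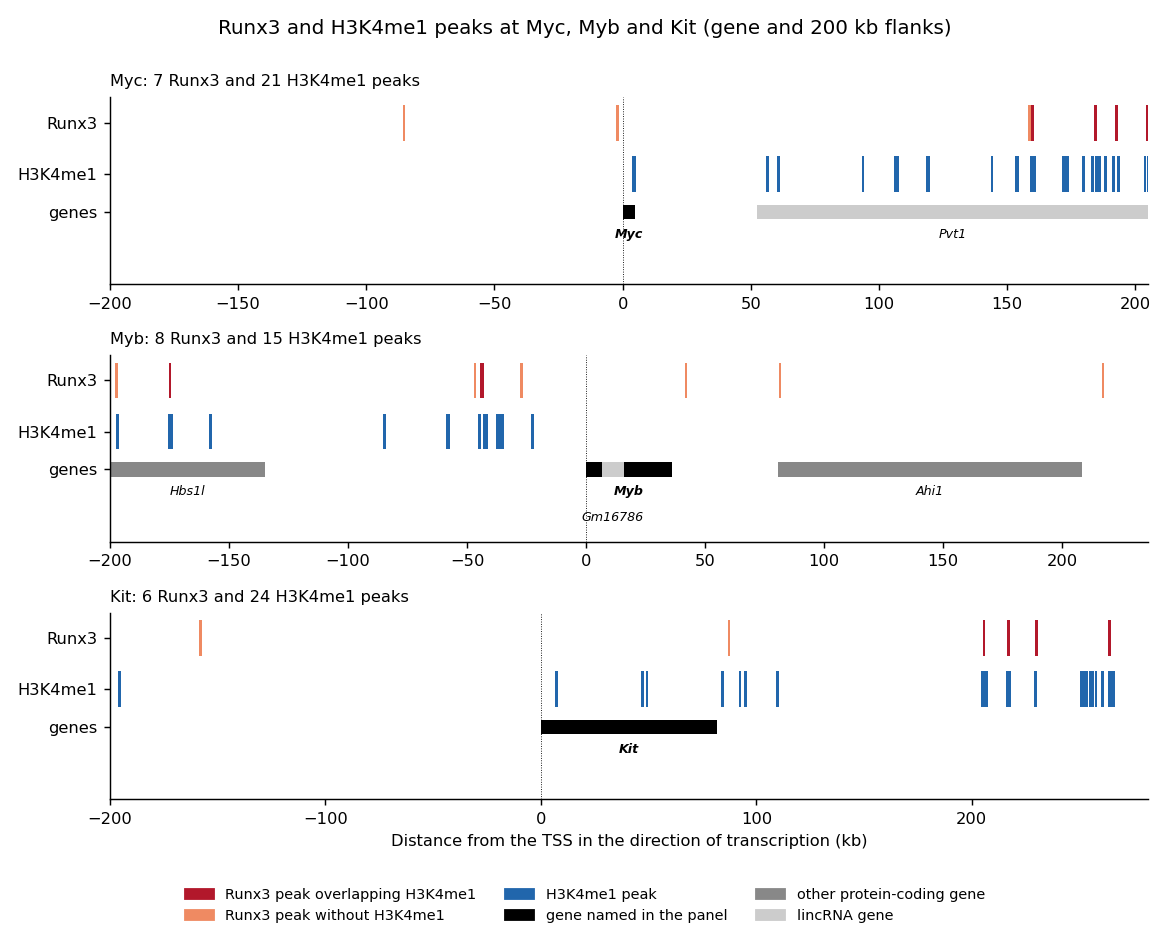
Runx3 peaks, H3K4me1 peaks and genes along the windows of Myc, Myb and Kit. The x axis gives the distance in kb from the TSS in the direction of transcription, and peaks too narrow to see were drawn wider. All 15 H3K4me1 peaks at Myb lie to the left of its TSS, while 19 of 21 at Myc and 20 of 24 at Kit lie beyond the 3′ end of the gene.

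Of the D-type cyclin genes, Ccnd2 (chr6:127075797-127101066, minus strand) had 1 Runx3 peak. This peak, chr6:127101581-127102544, was centred 1.0 kb upstream of the TSS, inside an intron of the opposite-strand non-coding gene 9330179D12Rik. It was 964 bp wide and GC-rich at 62.8%, with 2 RUNX motifs, 13 ETS motifs, the most of the 37 peaks, and 2 E-boxes. The 4 H3K4me1 peaks of Ccnd2 stood off from it, the nearest by 3211 bp, and the widest, 2394 bp, lay in an intron 7.2 kb downstream of the TSS. Ccnd3 (chr17:47642000-47736632, plus strand) had 3 Runx3 peaks and 22 H3K4me1 peaks, a number of H3K4me1 peaks that 0.694% of protein-coding genes reached. Its promoter peak, chr17:47641411-47642308, was centred at -141 bp from the TSS, held 3 RUNX motifs and 2 E-boxes, and was covered by H3K4me1 over 61.6% of its width. A peak of 450 bp in an intron at 16.6 kb missed H3K4me1 by 44 bp. The last, in an intron at 93.3 kb, was 4.9 kb from the other annotated TSS of Ccnd3 and touched H3K4me1 peaks on either side. H3K4me1 covered 15.5% of the Ccnd3 window, the largest share of the 9, against 6.52% at Ccnd2.

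Cdk4 (chr10:126500590-126504976, plus strand) lay in a gene-dense window of 44 kb with 2 Runx3 peaks and 9 H3K4me1 peaks, and no peak of either list overlapped the other. The promoter peak, chr10:126500154-126501286, was centred 48 bp from the nearest annotated TSS of Cdk4. It was 1133 bp wide, a width that 7.06% of Runx3 peaks reached, and held 5 RUNX motifs and 4 E-boxes, the most E-boxes of the 37 peaks. An H3K4me1 peak began 255 bp from it, inside Cdk4. The other Runx3 peak, 11.6 kb downstream of the TSS, was nearest to Agap2, a GTPase-activating protein gene, and 783 bp from H3K4me1. H3K4me1 covered 13.6% of the window, and of the 9 peaks 2 lay in Cdk4 and the others in or between the neighbouring genes.

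Cdk6 (chr5:3343893-3523218, plus strand) had 7 Runx3 peaks and 28 H3K4me1 peaks, all inside the gene, and both numbers were reached by fewer than 1% of protein-coding genes, 0.358% for Runx3 and 0.398% for H3K4me1. No Runx3 peak lay at its TSS. In the 2 kb around that TSS, 82.7% of 40-mers occurred once in the genome, against 98.6 to 100% at the other 8 genes, and only uniquely aligned reads had been kept. Myc, Myb, Kit and Cdkn1b, at 100%, and Cdkn1a, at 98.6%, also had no Runx3 peak centred within 1 kb of a TSS. A link between unique 40-mers and the lack of a peak was not tested. The first peak lay in an intron 12.1 kb downstream of the TSS. The remaining 6 formed a run of 41.3 kb, from 116.9 to 158.2 kb, in which neighbouring peaks were less than 15 kb apart, and this run held 15 H3K4me1 peaks. Of the 7 peaks 5 overlapped H3K4me1, and the other 2 missed it by 92 and 442 bp. When H3K4me1 peaks closer than 1 kb were joined, 9 of them formed a domain of 13.7 kb here, and 32 of 23008 joined domains of the genome (0.139%) were as wide. This domain touched 3 Runx3 peaks. The peak at chr5:3493869-3494930 lay wholly within H3K4me1, was 1062 bp wide and held 6 RUNX motifs. The nearest protein-coding TSS to each of these 6 peaks was that of Gm17590, a short gene model inside a Cdk6 intron. They were therefore not counted for Cdk6 when peaks were given to the nearest TSS. The first of the 6 already lay 116767 bp from the nearest annotated Cdk6 TSS. H3K4me1 peaks from 167.5 kb on were nearest to the TSS of Fam133b. The rule was not tried without Gm17590.

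The inhibitors p21 and p27 differed in their peaks. Cdkn1a (p21, chr17:29227924-29237667, plus strand) had no Runx3 peak within 20 kb, while 41.1% of protein-coding genes had one. The nearest Runx3 peaks lay 24.6 kb upstream and 42.3 kb downstream of the gene, and both overlapped H3K4me1. Its window held 4 H3K4me1 peaks, centred 9.7 kb upstream, in an intron at 6.8 kb, and downstream at 20.7 and 23.2 kb. Within 1 kb of the TSS 98.6% of 40-mers were unique, and 79.5% in the whole window, and reads from repeated sequence had not been kept. The share of a whole window was computed for Cdkn1a alone, so 79.5% has no value to be compared with. Its bearing on the lack of a Runx3 peak was not tested. Cdkn1b (p27, chr6:134870419-134875531, plus strand) had 3 Runx3 peaks and 2 H3K4me1 peaks. The peak 16.5 kb upstream, the widest at 902 bp, overlapped both H3K4me1 peaks and was nearest to the TSS of Gpr19, an orphan receptor gene. The others, chr6:134876775-134877410 and chr6:134877999-134878828, lay past the 3′ end of Cdkn1b, 6.7 and 8.0 kb from its TSS. They held 4 and 3 RUNX motifs, 64.5% and 55.4% GC, and no TGTGGT, the most common variant elsewhere. Both were over 22 kb from any H3K4me1 peak, with gaps of 22117 and 23341 bp.

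**Figure D4:**
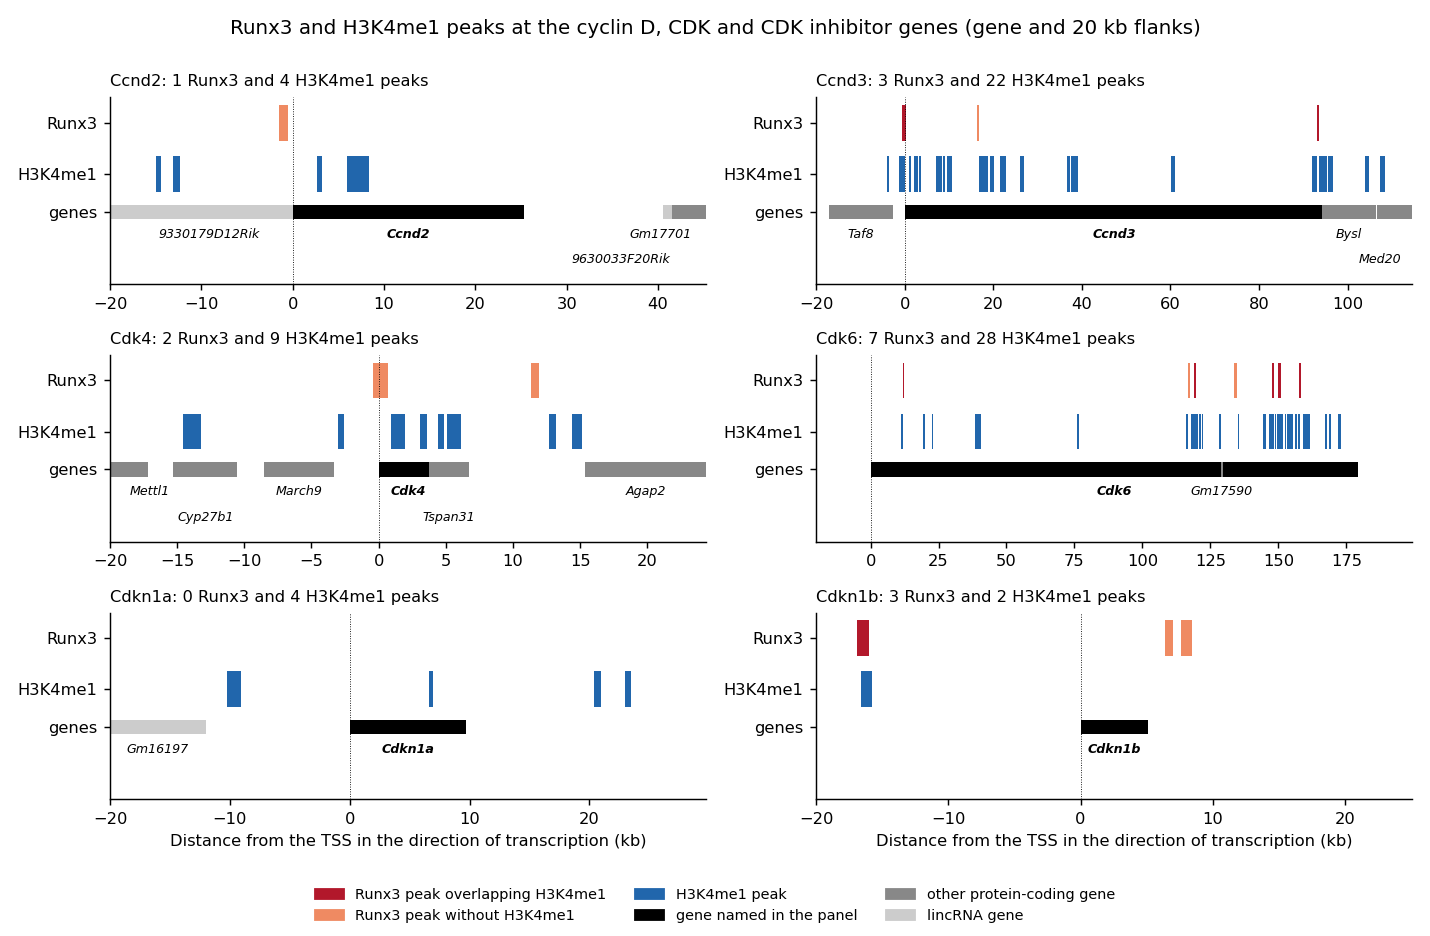
Runx3 peaks, H3K4me1 peaks and genes along the windows of the D-type cyclin, CDK and CDK inhibitor genes. The x axis gives the distance in kb from the TSS in the direction of transcription, and peaks too narrow to see were drawn wider. Cdk6 shows a run of 6 Runx3 peaks among H3K4me1 peaks in the last part of the gene, and the Runx3 row of Cdkn1a is empty.

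Most of the Runx3 peaks lay away from promoters. Runx3 was centred within 1 kb of an annotated TSS at 3 of the 9 genes, Ccnd2, Ccnd3 and Cdk4, against 13.3% of protein-coding genes. Of the 37 peaks 3 (8.11%, 95% Wilson interval 2.8 to 21.3) lay that close to any annotated TSS, against 25.3% of all Runx3 peaks. All 3 were among the 16 peaks at the 6 genes with 20 kb flanks (18.8%), and none among the 21 at Myc, Myb and Kit, whose 200 kb flanks consist mostly of sequence distant from a TSS. H3K4me1 came within 1 kb of an annotated TSS at Ccnd3, Cdk4 and Cdkn1a, where it was the TSS of a transcript that starts inside the gene. Of the 37 peaks, 24 had the gene itself as the nearest protein-coding TSS, 6 were nearest to Gm17590 inside Cdk6 and the remaining 7 to other neighbours. The Wilson intervals here and below cover counting error only, and neighbouring peaks are not independent.

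Runx3 peaks overlapped H3K4me1 about as often at these genes as in the whole list. Of the 37 Runx3 peaks 18 overlapped H3K4me1, 48.6% (33.4 to 64.1), against 48.4% of all Runx3 peaks. The share was 47.6% of the 21 peaks at Myc, Myb and Kit and 50% of the 16 at the other genes. Seen from the mark, 26 of 129 H3K4me1 peaks (20.2%) overlapped Runx3, against 19.9% of all. A Runx3 peak lay between H3K4me1 peaks within 2 kb on both sides, its centre outside them, in 8 of 37 cases (21.6%, 11.4 to 37.2), against 13.9% of all, and 6 of these 8 were at Myc, Myb and Kit.

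In sequence, each of the 37 peaks held a RUNX motif (100%, 90.6 to 100), against 96% of all Runx3 peaks. For this and the other motifs no share is given for sequence outside Runx3 peaks. Motif content above background therefore cannot be read from these values. In the central 200 bp the share was 75.7%, against 76.9%. The peaks at the 9 genes had a median of 3 RUNX motifs, as did all peaks, at a median width of 686 bp against 704 bp, and the motif nearest the centre lay a median of 44 bp away, against 40 bp. TGTGGT was present in 28 of 37 and TGTGGC in 23, while TGCGGT was found in 6 and TGCGGC in 8. These shares of 75.7%, 62.2%, 16.2% and 21.6% lay close to those of all Runx3 peaks, 75.9%, 57.7%, 21.8% and 19.2%. At Myc, Myb and Kit TGCGGT was in 1 of 21 peaks and at the other genes in 5 of 16. Other motifs were searched on both strands, each counted by itself whether or not it overlapped another. An ETS motif (NGGAAN with A or C as the first base and A or G as the last), the site of a large family of lymphoid factors, was present in 91.9%, against 91.4% of all Runx3 peaks. The AP-1 site (TGANTCA with C or G at N) was in 29.7% against 26.2%, and the T-box site of Tbx21 and Eomes (GGTGTGA) in 18.9% against 15.7%. The STAT site (TTC and GAA with any 3 bases between them), through which IL-2 acts by STAT5, was in 13 of 37 (35.1%, 21.8 to 51.2), against 21.6%, a value just below the lower end of the interval and 1 of 6 motifs compared. E-boxes (CACGTG) were in 16.2% against 14.6%. Of the 6 peaks with an E-box 5 were at the cyclin, CDK and inhibitor genes, in 5 of their 16 peaks, and 1 was among the 21 at Myc, Myb and Kit.

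**Figure D5:**
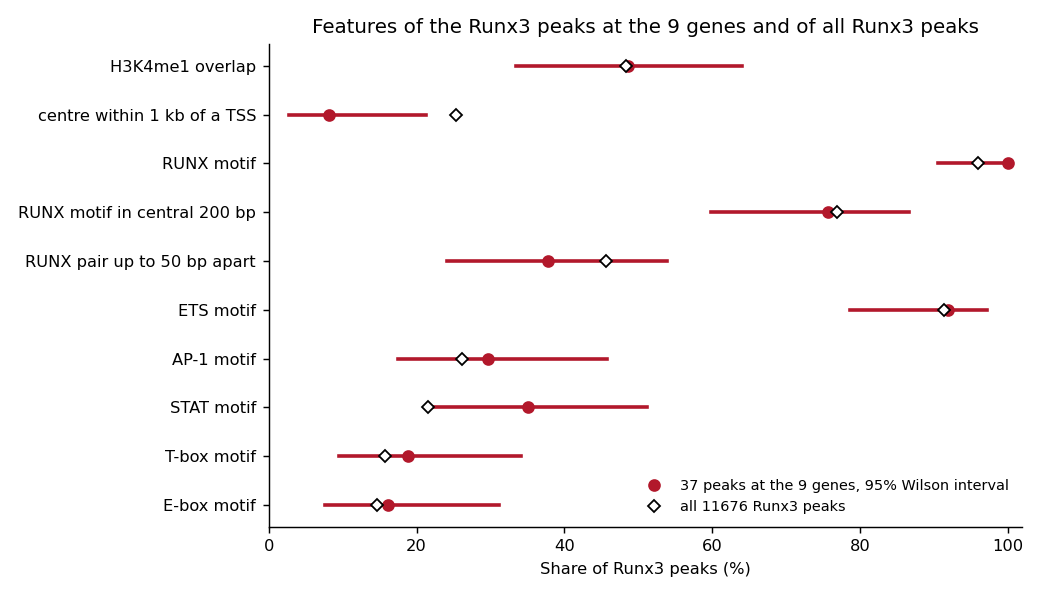
Share of Runx3 peaks with each feature, in percent. Red points with lines are the 37 peaks at the 9 genes with 95% Wilson intervals, and open diamonds are all 11676 Runx3 peaks. The diamond lies outside the interval for closeness to a TSS (8.11% against 25.3%, with 0 of 21 peaks in the wide windows of Myc, Myb and Kit and 3 of 16 at the other genes) and just outside it for the STAT motif (35.1% against 21.6%).

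Genes that work with the 9 were counted with the 20 kb flank. Of 18 further regulators of G1 and S phase, 14 had a Runx3 peak and 14 an H3K4me1 peak, against the 41.1% and 51.1% of all protein-coding genes. E2f3, which encodes an activating E2F, had 3 Runx3 peaks. Ccnd1, encoding the remaining D-type cyclin, and Ccne1, encoding a cyclin of late G1, had 2 each, and at both genes one of the peaks was centred within 1 kb of a TSS. E2f2, Rb1, Rbl1 and Rbl2 also had 2. Of 6 other CDK inhibitor genes 2 had a Runx3 peak, Cdkn2c and Cdkn2d with 1 each, and 2 had an H3K4me1 peak. In the MYC network, made of MAX, its partners and its antagonists, 9 of 12 genes had a Runx3 peak and 11 of 12 an H3K4me1 peak. Mnt, encoding a MAX-binding repressor, had 4 Runx3 peaks, and Mlxip, Mxd4 and Mxi1 had 3 each. Among Myb relatives and coactivators 2 of 4 had a Runx3 peak, Crebbp with 2 and Ep300 with 1, and Mybl1 and Mybl2 had none. An H3K4me1 peak was found at 2 of these 4. Among the ligand of Kit and related receptor kinases and ligands 6 of 7 had a Runx3 peak, led by Flt3l with 3, while Kitl, the gene of the ligand itself, had none, and 4 of the 7 had an H3K4me1 peak. These lists were drawn up with earlier results of the same data known, and genes of a list differ in length and in the number of genes near them.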

How the data were processed

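ChIP-seq of IL-2-activated splenic NKC comprised 2 Runx3, 1 H3K4me1 and 2 NIS libraries. Per the labels and the paper's methods, the authors mapped 40 bp reads on mm9 (ELAND, unique alignments), joined the reads of each antibody and called peaks with MACS against NIS, scaling the larger dataset to the smaller. The deposited values (other than counts or signal) are peak starts and ends in bp, with no score, so no test over samples could be made. Start positions, counted from 0 by the authors, are printed 1-based. Peaks on 19 autosomes and chromosome X were intersected with GENCODE M1 genes (overlap of 1 bp) and with the sequence of the same build. Motifs were searched on both strands. Shares carry 95% Wilson intervals, which cover counting error only. The 9 genes, the gene lists and the motifs were chosen with earlier results of these data known. For each gene the peak nearest the TSS, the widest and the one with most RUNX motifs were named, as were neighbouring genes nearest to a peak and the 2 genes per list with most Runx3 peaks, ties included. Sequences shown leave out annotated UTRs. Other flanks, overlaps, widths and joined peaks were tried as alternatives. Interval and motif counting was tested on simulated data. Python 3.11.15, numpy 2.4.6, scipy 1.17.1, pysam 0.24.0, samtools 1.23.1 and matplotlib 3.10.9 were used.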

Additional observations from a re-analysis of the deposited data

How the results depend on the processing

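Of 33 combinations of a result and an alternative setting, 21 were counted as giving the same reading as reported, although their values also differed. The number of Runx3 peaks at the 9 genes, 37 as reported, was 23 with the flanks halved, 19 with a flank of 20 kb for all 9 genes, 24 when a peak counted only for the nearest protein-coding TSS and 16 when only peaks at or above the median width counted. The number of H3K4me1 peaks, 129 as reported, was 82, 77, 82 and 63 under the same settings and 78 with peaks closer than 1 kb joined. With the flanks doubled the numbers were 49 and 143, and Cdkn1a gained a Runx3 peak. The share of Runx3 peaks overlapping H3K4me1, 48.6%, was 27% when at least 50% of the peak had to be covered and 67.6% when an H3K4me1 peak within 1 kb was enough. The share with a RUNX motif, 100%, was 75.7% in the central 200 bp. Fewer peaks under narrower windows and stricter rules follow from how these alternatives are built. The number of genes with a Runx3 peak was 8 under each alternative except the doubled flanks, which gave 9. Leaving out a replicate could not be tried, since the reads of the libraries were joined before peaks were called. No paired analysis was possible because the lists hold no value per library. Peak height and depth are not in the lists, so a region without a peak is one where none was called, not one shown to be free of Runx3 or of H3K4me1.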
